A study of Drosophila melanogaster with 8 samples.

Results

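The regions described here are the Bicoid (Bcd) peaks that were called in zelda mutant Drosophila melanogaster embryos at places where no peak was called in wild-type embryos. They are the peaks of the mutant list on chromosomes 2L, 2R, 3L, 3R, 4 and X that share 0 bp with any peak of the wild-type list. There are 478 such mutant-only peaks among the 1870 mutant peaks on these chromosomes (25.6%, Wilson 95% interval 23.6 to 27.6), and among 2650 mutant peaks in all. The remaining 1392 mutant arm peaks, with 1 bp or more in common with a wild-type peak, are called shared. The members were chosen by the called positions of both lists, so their number and their distance from wild-type peaks are a description and support nothing by themselves.

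Chromatin immunoprecipitation with sequencing (ChIP-seq) was done on embryos 1 to 3 h old, counted from egg laying. In all, 8 samples form 4 groups of 2 replicates: zelda mutant Bcd ChIP, zelda mutant input, wild-type Bcd ChIP and wild-type input. The labels give no allele, strain or way of making the zelda mutant, and do not say whether replicates came from separate collections of embryos. The files used here hold 1 peak list per genotype, so no replicate spread could be computed and no test between genotypes was possible.

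Bcd is a homeodomain transcription factor translated from maternal mRNA held at the anterior pole of the egg. Its protein forms a gradient along the embryo and activates head and trunk patterning genes through enhancers that carry clusters of Bcd sites. Zelda is a maternally supplied zinc finger protein present in all nuclei of the early embryo, and is known as a pioneer factor that makes enhancer DNA accessible to other factors before and during the first zygotic transcription. The comparison asks where Bcd peaks were called in zelda mutant embryos and not in wild-type embryos.

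The mutant ChIP held 10060479 tags after removal of duplicate positions, against 39154546 in the wild-type ChIP, which was 3.89 times deeper. The deeper list held 2827 arm peaks with a median length of 2127 bp. The inputs held 17035242 tags in the mutant and 22487837 in wild type. Raw tags per kb of the 2 lists are therefore not compared, and differences in depth and in genotype cannot be told apart. Several tags can stem from 1 molecule, and the intervals of tag counts cover counting error alone. Intervals of medians and shares take the peaks of 1 list as separate draws. No interval given here covers the spread between replicates or embryos.

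Mutant-only peaks were in the median shorter and less dense than shared peaks. Their median was 126 ChIP tags per kb (quartiles 115 and 141), against 142 tags per kb (125 and 165) for shared peaks of the same library. Whole tag counts ran from 95 to 1277 per mutant-only peak with a median of 160, and from 87 to 1301 with a median of 216.5 for shared peaks. The 2 distributions overlapped over nearly their whole range, as the cumulative plot of density shows. The median mutant-only peak had 0.885 times the density of the median shared one. Mutant-only peaks were 794 to 5469 bp long with a median of 1201.5 bp (binomial 95% interval of the median 1160 to 1245), and shared peaks 779 to 6746 bp with a median of 1439.5 bp (1393 to 1472). Both orders turned among peaks with a false discovery rate (FDR) of at most 5%. Medians were 246 tags per kb and 3776.5 bp in 20 mutant-only peaks, and 197.5 tags per kb and 2226 bp in 227 shared peaks. Of those 20 peaks, 10 belonged to 1 evenly spaced series of long peaks on 2L described below. Without that series the median lengths were 1502.5 bp (interval 1304 to 2923) in mutant-only and 2164 bp in shared peaks. The median densities were then 202 (153 to 255) and 196 tags per kb.

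**Figure D1:**
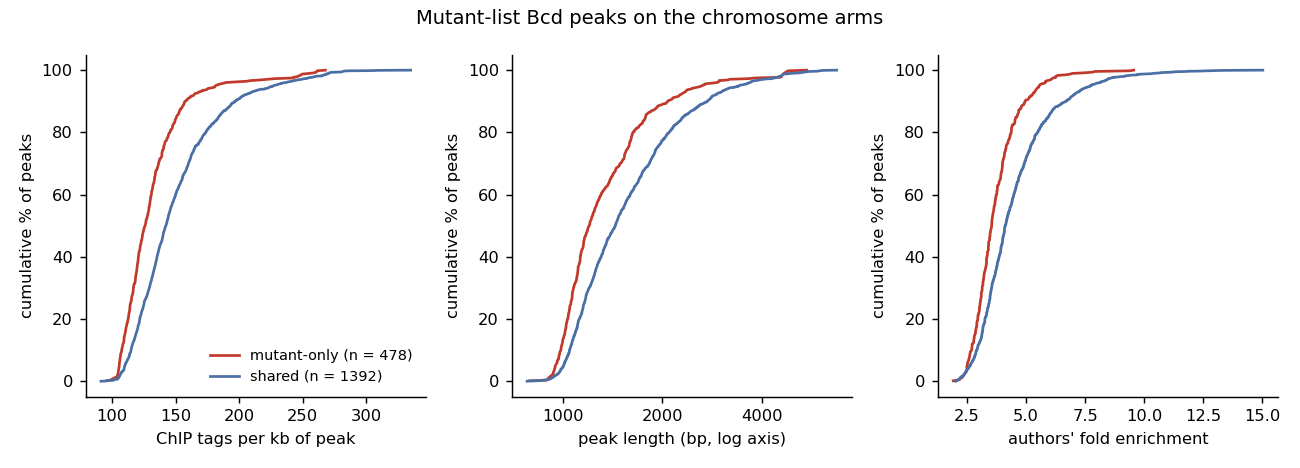
Cumulative share of mutant-list arm peaks (y, percent) by ChIP tags per kb, by peak length in bp (log axis) and by the authors' fold enrichment (x), for 478 mutant-only peaks in red and 1392 shared peaks in blue. The mutant-only curve lies to the left of the shared one over most of each plot, with medians of 126 and 142 tags per kb, 1201.5 and 1439.5 bp, and 3.54-fold and 4.11-fold.

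Mutant-only peaks had lower scores and folds than shared ones. The authors' score, which is −10 times the log10 of the peak caller's p-value and begins at 50, had a median of 78.7 in mutant-only peaks and 146 in shared ones. A score under 60 was found for 117 of the 478 mutant-only peaks (24.5%) and 105 of the 1392 shared peaks (7.54%). The authors' fold enrichment of ChIP over local background had a median of 3.54 (quartiles 3.05 and 4.15) in mutant-only peaks and 4.11 (3.42 and 5.17) in shared peaks. A fold of at least 5 was reached by 46 mutant-only peaks (9.62%) and 394 shared peaks (28.3%). The authors' FDR was at most 5% for 20 mutant-only peaks (4.18%) and 227 shared peaks (16.3%).

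At like scores, mutant-only and shared peaks were close in density. The mutant list was divided by score into 5 groups of 374 peaks. Mutant-only peaks made up 49.2% (44.2 to 54.2) of the group with the lowest scores, against 25.6% in the whole list. In that group the median density was 114 tags per kb for mutant-only and 115 for shared peaks, and the median length 1068.5 and 1081.5 bp. In the middle group, 24.6% were mutant-only (20.5 to 29.2), with median densities of 137 tags per kb in mutant-only and 135 in shared peaks. In the first 4 of the 5 groups the 2 medians of density lay within 3 tags per kb of each other, and the score itself is computed from tag counts. In the fourth group the median lengths were 1448 bp for mutant-only and 1535 bp for shared peaks. In the group with the highest scores, 27 of 374 peaks were mutant-only (7.22%, 5.01 to 10.3), with a median of 228 tags per kb against 187 in shared peaks. Of those 27 peaks, 10 belong to 1 evenly spaced series on 2L described below, and without that series the medians were 188 tags per kb for mutant-only and 186 for shared peaks. The median lengths in this group were 2663 bp for mutant-only and 2111 bp for shared peaks. Without the series their order turned, to 1611 and 2036.5 bp.

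**Figure D2:**
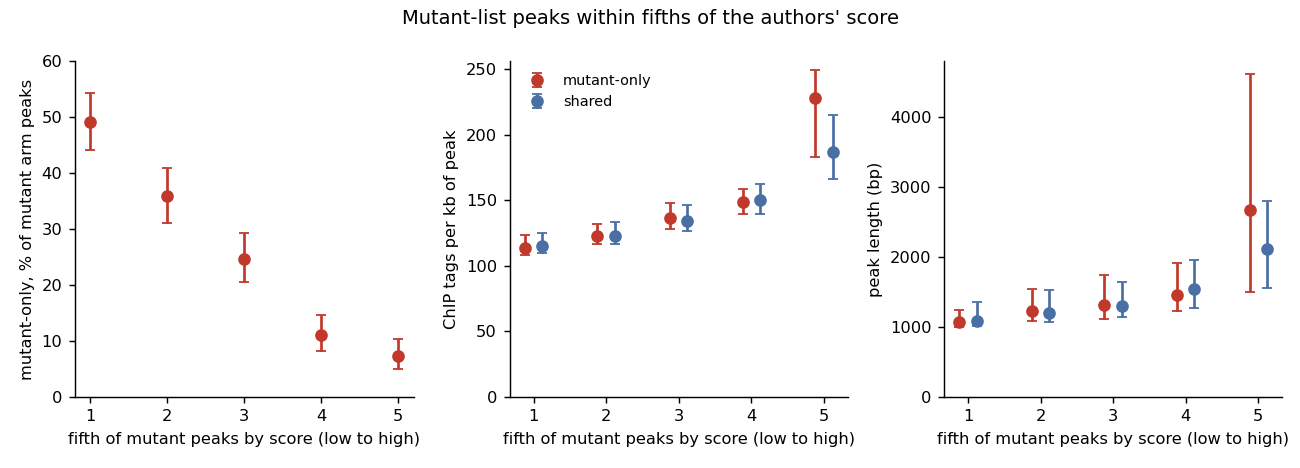
Mutant-list arm peaks in 5 groups of rising score (x). Left, mutant-only peaks as percent of each group with Wilson 95% intervals, from 49.2% in the group with the lowest scores to 7.22% in that with the highest. Middle and right, ChIP tags per kb and length in bp as medians with quartiles for mutant-only (red) and shared (blue) peaks, which lie close together except in the last group. In that group, 10 of the 27 mutant-only peaks belong to the evenly spaced 2L series.

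Up to 4000 bp, mutant-only peaks were less dense than shared peaks of like length. Among peaks of over 1000 and up to 1500 bp, the median density was 126 tags per kb in 271 mutant-only peaks and 136 in shared ones. Among those of over 1500 and up to 2500 bp it was 131 tags per kb in 115 mutant-only peaks and 149 in shared ones. Of the 128 mutant arm peaks of at most 1000 bp, 64 were mutant-only (interval 41.5 to 58.5%), while 16 of 150 peaks over 2500 and up to 4000 bp were (10.7%, 6.67 to 16.6). A longer peak has more bases that can meet a wild-type peak under the 0 bp rule, and the part of this in the trend was not tested. The share was 12 of 54 above 4000 bp (22.2%, 13.2 to 34.9), where 10 of these 12 belonged to the 2L series and the median density was 247 tags per kb in mutant-only and 173 in shared peaks.

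Scaled to the depth of each library, the median mutant-only peak was denser than the median peak of the wild-type list. The mutant-only median was 12.5 tags per kb per 1000000 ChIP tags (quartiles 11.4 and 14.0), against 11.6 (10.2 and 13.7) for all 2827 wild-type arm peaks. The least dense mutant-only peak had 9.57 on this scale, and the least dense wild-type peak 7.53. The least dense shared peak had 9.07, so the mutant list as a whole began above the least dense wild-type peaks. Of the 478 mutant-only peaks, 330 (69.0%) lay above the wild-type median, against 87.1% of shared peaks. The wild-type density at these 478 places is not given in peak lists, so no fold change between genotypes is reported. The median wild-type peak was also longer, at 2127 bp, than the median mutant-only peak.

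The summit, the base with the most overlapping tags, lay near the middle of most mutant-only peaks. It stood at a median of 51.4% of the peak length from the left end (quartiles 45.4 and 60.2), against 50.3% (42.2 and 58.8) in shared peaks. The median distance of the summit from the peak centre was 7.39% of the length in mutant-only peaks and 8.44% in shared peaks. It exceeded 25% of the length in 34 mutant-only peaks (7.11%, 5.13 to 9.78) and 131 shared ones (9.41%, 7.99 to 11.1), and these intervals overlap. The summit was right of the centre in 57.1% of mutant-only peaks and 51.2% of shared peaks. The summit sat nearer the centre in short peaks of both kinds. Its median distance from the centre was 4.05% of the length in mutant-only and 4.34% in shared peaks of up to 1000 bp, and 24.5% and 21.6% in peaks over 2500 and up to 4000 bp.

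Mutant-only summits were mostly far from any wild-type summit. The median distance was 12.5 kb (binomial 95% interval 11.1 to 14.7, quartiles 5.15 and 27.9 kb), against 52 bp for shared summits (quartiles 20 and 252 bp). No mutant-only summit lay within 1 kb of a wild-type summit, 27 lay within 2 kb and 115 within 5 kb (24.1%). The nearest was 1.11 kb away and the farthest 187 kb. For scale, wild-type arm summits lay a median of 8.19 kb from the next wild-type summit (quartiles 3.81 and 22.0 kb). The 2 groups overlap between 1.11 kb and 5.90 kb.

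**Figure D3:**
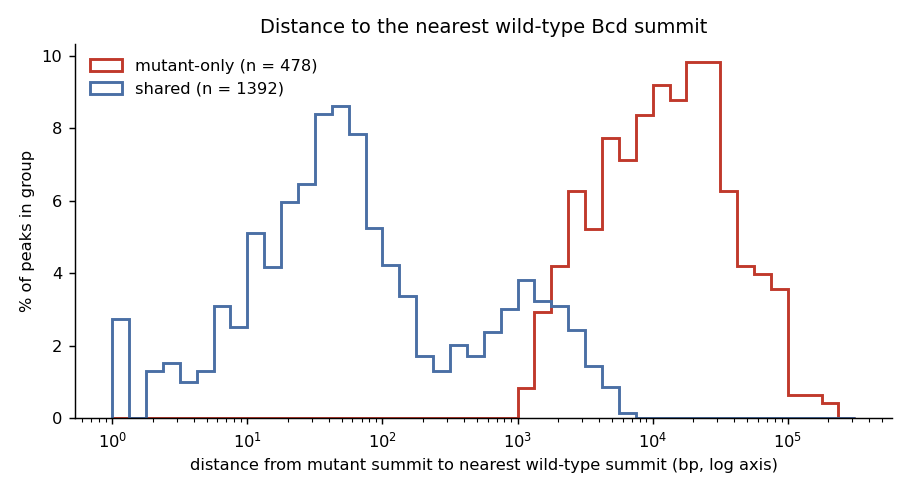
Distance in bp (log axis) from each mutant summit to the nearest wild-type summit, as percent of each group in bins of equal width on the log axis, with 478 mutant-only peaks in red and 1392 shared peaks in blue. Shared summits gather around a median of 52 bp with a smaller second rise above 1000 bp, and mutant-only summits around a median of 12.5 kb. A distance of 0 is drawn at 1 bp.

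From edge to edge, 54 mutant-only peaks lay within 1 kb of a wild-type peak (11.3%, 8.76 to 14.4) and 33 within 500 bp, while 312 lay beyond 5 kb (65.3%). Mutant-only peaks in 4 classes of this gap had close medians of fold. The median fold was 3.61 for gaps of up to 1 kb (54 peaks), 3.44 between 1 and 5 kb (112 peaks), 3.52 between 5 and 20 kb (154 peaks), and 3.54 beyond 20 kb (158 peaks). The median density in the same order was 123, 130, 127 and 123 tags per kb. A fold of at least 5 was found for 5 (9.26%), 5 (4.46%), 15 (9.74%) and 21 (13.3%) of these peaks. The interquartile ranges of fold overlap in all 4 classes.

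Few mutant peaks lay at the limit of 0 bp, but the number of members depended on the overlap rule. It was 927 where a shared peak needed a reciprocal overlap of 50%, and 845 where it needed a wild-type summit within 200 bp. Of the shared mutant peaks, 1199 of 1392 (86.1%) lay wholly inside a wild-type peak, and 4 had under 50% of their length in it. Positions are given on build dm3, counted from 1. Just inside the rule, the smallest gaps were 26 bp at 3R:6175498-6177066, 37 bp at 2L:21521275-21525984, 68 bp at 2R:18154878-18157485, 81 bp at X:17402162-17403273 and 84 bp at X:4317572-4318503, with folds of 2.85, 3.28, 5.82, 4.68 and 4.80. Just outside it, the smallest overlaps were 77 bp at X:6696167-6697213 with a fold of 3.19 and 91 bp at 3L:15307297-15309182 with a fold of 3.10. The next smallest were 779, 785 and 842 bp, in peaks of just those lengths that lay wholly inside a wild-type peak. Those peaks are short and not near the limit. The folds of the peaks with 77 and 91 bp of overlap lay within the range of the 5 just inside.

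The wild-type peak nearest to a mutant-only peak was often one that another mutant peak overlapped. This was so for 284 of the 478 (59.4%, 55.0 to 63.7), and for 44 of the 54 within 1 kb (81.5%, 69.2 to 89.6), while 1285 of all 2827 wild-type arm peaks overlapped a mutant peak (45.5%). Mutant-only peaks at small gaps thus mostly stood beside places called in both lists. A wild-type peak nearest to several mutant-only peaks was counted once for each of them. The 478 had 378 distinct nearest wild-type peaks, and the intervals take no account of this. Of the 2821 stretches between neighbouring wild-type peaks, 366 held at least 1 mutant-only peak, and the stretches that did had a median length of 60.7 kb against 13.3 kb for those that did not. Mutant-only peaks per 100 kb numbered 0.512 in stretches of up to 5 kb and 0.556 in those of over 5 and up to 10 kb. The number was highest, at 0.922, in stretches of over 10 and up to 25 kb. It was 0.601 in the class up to 50 kb, 0.421 in that up to 100 kb and 0.295 in stretches longer than 100 kb. The stretches longer than 100 kb held 165 of the 478 peaks, the most of any length class, and the fewest per length.

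Every arm carried mutant-only peaks in like proportion. They were 22.5% of mutant peaks on 2L (75 of 333, 18.4 to 27.3), 24.4% on 2R (89 of 365, 20.3 to 29.0), 27.1% on 3L (98 of 362, 22.8 to 31.9), 25.8% on 3R (126 of 488, 22.1 to 29.9), 3 of 12 on chromosome 4 (8.89 to 53.2%) and 28.1% on X (87 of 310, 23.4 to 33.3). All 6 intervals hold the 25.6% of the whole list. On X, mutant-only peaks had a median of 118 tags per kb (binomial 95% interval 114 to 123), against 136 (133 to 140) for shared peaks, and the medians of the 4 large autosomal arms were 126 to 130 tags per kb for mutant-only peaks. Mutant-only peaks on X were also short, with a median of 1112 bp (1046 to 1178). Shared peaks of X had the lowest median density of all arms too. Folds on X were not lower. The median fold of mutant-only peaks was 3.78 on X, against 3.4 to 3.7 on the 4 large autosomal arms. For shared peaks it was 4.38 on X, against 4.01 to 4.095 on those arms.

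**Figure D4:**
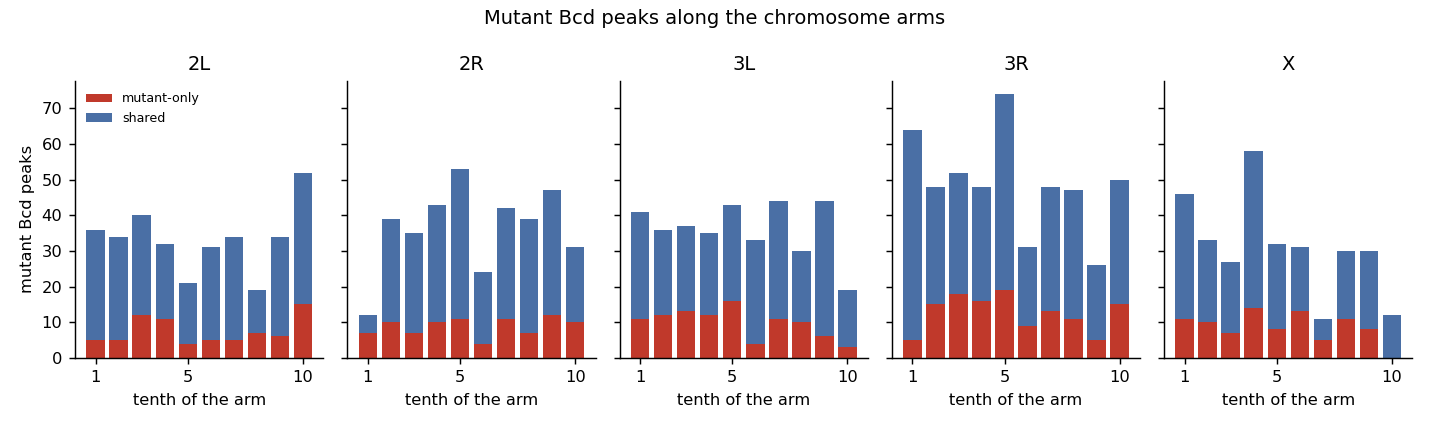
Number of mutant Bcd peaks (y) in each of 10 equal parts of 5 chromosome arms (x, from the first base of the arm to the last peak of either list), with mutant-only peaks in red below and shared peaks in blue above. Mutant-only peaks occur in every part of 2L, 2R, 3L and 3R, and in all but the last part of X.

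Along the arms, mutant-only peaks occurred in 110 of 124 windows of 1 Mb, with 3.85 per window on average. The 3 fullest windows held 40 of the 478 (8.37%): 14 of 42 mutant peaks between 21 and 22 Mb of 2L, 14 of 44 between 12 and 13 Mb of 3R, and 12 of 29 between 11 and 12 Mb of 3L. The shares of mutant-only peaks in these windows were 33.3, 31.8 and 41.4%. In the 2L window, 10 of the 14 mutant-only peaks, and 23 of the 42 mutant peaks, belonged to the evenly spaced series described below. When each arm was divided into 10 equal parts, the lowest share was in the last part of X, with 12 mutant peaks and no mutant-only peak (Wilson interval up to 24.2%). The next lowest was 5 of 64 at the start of 3R (7.81%, 3.38 to 17.0), and the highest was 7 of 12 at the start of 2R (58.3%, 32.0 to 80.7). These parts were picked as extremes after their values were seen, and their differences were not tested.

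The nearest neighbour of a mutant-only peak in the mutant list was more often mutant-only too than that of a shared peak. This was so for 162 of 478 mutant-only peaks (33.9%, 29.8 to 38.2) and 279 of 1392 shared peaks (20.0%, 18.0 to 22.2), around the 25.6% of the list. The distance to the nearest other mutant summit had a median of 11.9 kb (9.73 to 14.6) in mutant-only peaks and 9.45 kb (7.94 to 10.6) in shared peaks. This order turned where a shared peak needed a reciprocal overlap of 50% (8.11 kb in mutant-only and 12.02 kb in shared peaks). It also turned where a shared peak needed a wild-type summit within 200 bp (8.96 and 10.9 kb). Among peaks with an FDR of at most 5%, measured between those peaks alone, the medians were 5.09 and 46.8 kb. There 10 of the 20 mutant-only peaks belonged to the evenly spaced 2L series described below. Without that series the medians were 29.8 kb (interval 2.54 to 288) in 10 mutant-only peaks and 48.1 kb in shared peaks. A neighbour within 5 kb was found for 132 mutant-only peaks (27.6%) and 533 shared peaks (38.3%). In the order of mutant peaks along each arm, 224 mutant-only peaks stood alone between shared peaks (46.9%) and 254 stood in unbroken runs of at least 2 (53.1%). There were 34 runs of at least 3, with 122 peaks. The runs follow from the same overlap rule and are a description. The share in runs is not on the scale of the 25.6%, since a peak can have a mutant-only neighbour on either side.

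The longest run held 8 mutant-only peaks over 39.9 kb at 2L:21486091-21525984, and belonged to a larger series of long, evenly spaced peaks. The series was defined after its values were seen, as mutant peaks of at least 3900 bp whose start lay 4.7 to 5.3 kb from that of an adjacent such peak. It held 23 mutant peaks over 123 kb, at 2L:21416525-21539909, with no such peak elsewhere on the arms. Starts were a median of 5.03 kb apart (4.83 to 5.24 kb), apart from a single step of 14.1 kb. Of the 23 peaks, 10 were mutant-only and 13 were shared.

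**Figure D5:**
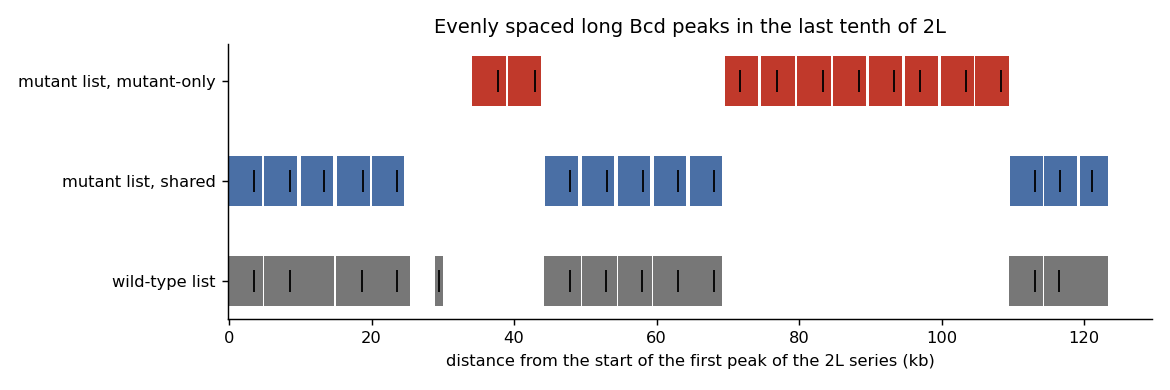
Peaks of the evenly spaced 2L series as bars along the arm (x, kb from the start of the first peak), with black ticks at the summits. The 10 mutant-only peaks (red, top) lie in the 2 stretches where the wild-type list (grey, bottom) has no long peak. The 13 shared peaks (blue, middle) lie over wild-type peaks of like spacing.

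The mutant-only and the shared members of the series were alike in the mutant list. Tags ran from 1129 to 1277 in the 10 mutant-only and from 971 to 1262 in the 13 shared peaks, and densities from 243 to 268 and from 214 to 272 tags per kb. Folds ran from 3.05 to 4.16 in the mutant-only and from 2.80 to 4.56 in the shared members, and lengths from 4588 to 4812 bp and from 3952 to 4700 bp. The ranges overlap in all 4 measures. The summit offset took 2 positions among the mutant-only members, at least 3500 bp from the left end in 7 peaks and under 2400 bp in 3. Shared members also had far and near offsets, from 3238 to 3687 bp and at 2170 and 1713 bp. In the wild-type list, 11 peaks of at least 4 kb lay on the same span, 2 of them longer than 9 kb, with folds of 3.93 to 4.83, and 8 of the mutant-only members filled a wild-type gap of 40.3 kb at 2L:21485687-21526021.

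The series held many of the confidently called mutant-only peaks. It gave 10 of the 20 mutant-only peaks with an FDR of at most 5%, and 8 of the 13 with a score of at least 500. The most strongly scored was 2L:21496260-21501025, whose score was 1065, whose fold was 3.59 and whose 1277 tags had a Poisson 95% interval of 1208 to 1349. It was also the densest of all mutant-only peaks, at 268 tags per kb. The members at 2L:21455713-21460352, 2L:21450681-21455408 and 2L:21506361-21510971 had 261, 261 and 259 tags per kb and folds of 3.98, 3.68 and 4.16. These densities were far above the median of 126 tags per kb of all mutant-only peaks. Folds of the 10 mutant-only members ran from 3.05 to 4.16, around the median of 3.54 of all mutant-only peaks. The ratio of tags per kb to fold was 62.3 to 81.3 in the 10 mutant-only members, against a median of 35.5 over all mutant-only peaks. In the 13 shared members of the series it was likewise high, at 58.1 to 88.0.

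The sources used here do not say how the authors treated reads that map to several places. Whether the series is made of copies of 1 repeat was not tested, and the part of such reads in these peaks was not tested either, because no sequence of the files' build (dm3) was used. Peaks were not placed on genes for the same reason. The RefSeq gene table of Release 6, a later build, names 23 His1, 23 His2B, 23 His3, 22 His4 and 20 His2A genes on 2L, the histone genes known to stand in a tandem array in this species. The place of the peaks relative to these genes was not determined.

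The 10 mutant-only peaks with the highest fold lay outside the series, on 5 chromosome arms, with folds of 6.27 to 9.56. The first was 2L:8675166-8676317, with a fold of 9.56, a score of 455 and 263 tags in 1152 bp (232 to 297), or 228 tags per kb. The nearest wild-type peak stood 73.4 kb away, and the nearest mutant peak 131 kb away. It was the most isolated of the 10 on both sides. The second, 3R:18882328-18883744, had a fold of 9.38 and 292 tags (259 to 327), with another mutant-only summit 1.36 kb away and the nearest wild-type peak 16.2 kb away. The third, 2R:6438919-6441064, had a fold of 7.91 and 367 tags, but a density of 171 tags per kb, an FDR of 8.61% and a summit at 27.2% of its length. It was the longest of the 10 and the one with the most off-centre summit.

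The next members by fold differed in their distance from wild-type peaks. The peak at 3R:25599757-25601127 had a fold of 7.83 and 255 tags per kb, and its edge was 418 bp from a wild-type peak with a fold of 5.95. The peak at 2L:16532334-16533637 had a fold of 7.49 and 261 tags per kb, and was 44.8 kb from a wild-type peak and 2.27 kb from the next mutant-only summit. The peak at 3R:7598880-7600224 had a fold of 6.96 and 250 tags per kb. These 3 peaks and the first 2 were the 5 of the 10 with an FDR of at most 5%. The remaining 4 were 3L:10239152-10240089, X:3597759-3598952, 3R:24372450-24373764 and 3L:6181664-6182712, with folds of 6.87, 6.72, 6.36 and 6.27 and densities of 157, 175, 217 and 137 tags per kb. The last of them shared its fold with the peak that came next in the order. The summit lay within 10% of the length from the centre in 8 of the 10.

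The second longest run held 7 mutant-only peaks over 186 kb, at 3R:7589021-7775419, with folds up to 6.96. It included the peak at 3R:7598880-7600224, followed by 3R:7600547-7602600 with a fold of 3.07 and 3R:7603343-7607009 with a fold of 4.81 and 592 tags. These 3 peaks were 11.2, 12.9 and 15.7 kb from the nearest wild-type peak, and the other 4 peaks of the run had folds of 2.49 to 3.68. The run thus joined a tight group of 3 peaks to more scattered ones. Folds did not divide the 2 sets, since the 3.07 in the tight group lay within the range of the others. The third run, 3L:11115916-11209589, held 5 peaks over 93.7 kb with folds up to 4.69. Runs of 5 were also found at 3R:12748901-12796504 and X:12484886-12554946, with folds up to 5.55 and 3.79.

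The mutant-only peaks farthest from wild-type summits were on 2L and X. The peak at 2L:7826812-7828973 had its summit 187 kb from a wild-type one, with a fold of 3.98 and 297 tags, and the peak at 2L:16787231-16788329 was 173 kb away with a fold of 6.26 and 164 tags. On X, 2 neighbouring peaks lay 179 and 172 kb from a wild-type summit. One of these, X:12825031-12830499, was the longest of all mutant-only peaks, with 5469 bp and 1143 tags. Its fold of 1.91 was the lowest of the 478 and its ratio of tags per kb to fold, 109, was the highest. Its neighbour X:12819213-12820747 had a fold of 3.92 and a score of 51.4, near the limit of the list. The peak at X:17246630-17247643, 154 kb from a wild-type summit, had a fold of 5.21 and 120 tags. The 5 farthest peaks thus had folds from 1.91 to 6.26.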

How the data were processed

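Bcd ChIP and input DNA of zelda mutant and wild-type embryos were sequenced. The submitters' processing notes name Bowtie2, build dm3 and MACS 1.4.2. The p cutoff was 1e-05, the band width 300 bp, the fragment length d 200 bp and the duplicate limit 1 tag per position, per the file headers, which also record that ChIP and control were scaled down to the smaller of the pair. The sources used here do not say how replicates were joined. The deposited lists hold for every peak a raw tag count, a score of −10 × log10 of the p-value, a fold enrichment as the ratio of ChIP to local background, and an FDR in percent. These are the authors' values, used to describe peaks within a list.

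Overlap, gap, summit distance, spacing and runs were computed on 1-based positions with Python 3.11.15, numpy 2.4.6, scipy 1.17.1 and pandas 2.3.3. In a check of the overlap step on simulated intervals, 187 of 187 simulated shared and 176 of 176 simulated separate peaks were recovered. Shares have Wilson 95% intervals, medians binomial ones and tag counts exact Poisson ones. With 1 list per genotype no p-value is given. Named peaks are the 10 with the highest fold, the 5 densest, longest and farthest, and the 3 longest runs and fullest windows. Also named are the 5 with the smallest gap and the 5 shared peaks with the fewest overlapping bp. Ties went by position. The members and lists were chosen with earlier results of these data known. Peaks on the heterochromatic and unplaced sequences were left out.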

Additional observations from a re-analysis of the deposited data

How the results depend on the processing

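The settings that leave out the 2L series were chosen after seeing the data. Under limits on mutant score or FDR, and without the series, spacing and runs were computed among the remaining mutant peaks alone. With wild-type peaks extended by 500 bp, with the autosomal arms 2L, 2R, 3L and 3R alone, and without the 2L series, the medians of density, length, summit position, distance and spacing stayed within the intervals of the values reported, for 445, 388 and 468 mutant-only peaks. The share of mutant-only peaks in the list, 25.6% as reported, moved with the other rules. A share in runs rises with that share whatever the order of peaks, and the 2 shares are not on the same scale. Shares in runs are therefore given as a description and not as a measure of clustering. With a reciprocal overlap of 50%, 927 peaks (49.6% of the mutant arm peaks tested) were mutant-only, with medians of 131.3 tags per kb, 1272 bp and 2.77 kb to a wild-type summit, and 77.6% stood in runs. With summits within 200 bp it was 845 peaks (45.2%), 131 tags per kb, 1350 bp, 3.58 kb and 70.5%. The median spacing became 8.11 and 8.96 kb, below that of shared peaks, so the order of the 2 spacings turned under both rules. With a mutant score of at least 100, 151 peaks (13.7%) were mutant-only, with 146 tags per kb, 1485 bp, a spacing of 18.7 kb and 35.8% in runs. With a wild-type score of at least 100, 752 (40.2%) were mutant-only, 18.1 kb from a wild-type summit and 69.9% in runs, since fewer wild-type peaks were left to overlap. With an FDR of at most 5% there were 20 mutant-only peaks (8.10%), and their medians of 246 tags per kb and 3776.5 bp were above those of shared peaks, with summits at 70.0% of the length, 10.95 kb to a wild-type summit, a spacing of 5.09 kb (below that of shared peaks) and 60.0% in runs. Without the 2L series, that limit left 10 peaks (4.41%), with 202 tags per kb against 196 in shared peaks, 1502.5 bp, summits at 52.7%, a spacing of 29.8 kb and 20.0% in runs. The median length was then again below the 2164 bp of shared peaks, while the order was still turned for density and for spacing. For length, density and spacing, the intervals of the 10 peaks were 1304 to 2923 bp, 153 to 255 tags per kb and 2.54 to 288 kb. Each held the shared median, that of spacing being 48.1 kb. With 10 peaks none of these orders was settled, and the cause was not tested. Of the 10 mutant-only peaks with the highest fold, 5 passed the FDR limit and 9 stayed mutant-only with wild-type peaks extended. The fullest window held 7 peaks with windows of 250 kb. No paired analysis was possible because replicates have no values of their own in the single list of each genotype, and leaving out a replicate could not be tried either. The mutant depth of 10060479 tags limits which weak peaks can be listed.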

Other observations

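Of the 780 mutant peaks outside the 6 chromosomes described, 522 overlapped no wild-type peak (66.9%). These lie on heterochromatic and unplaced sequences and entered no comparison.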
